A study of Mus musculus with 20 samples.

Results

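Among thymic precursors of intraepithelial lymphocytes sorted as T-bet-, some cells held RNA of Trdc, the gene for the constant region of the T cell receptor delta chain. These Trdc-expressing cells were chosen by their measured Trdc count, as T-bet- cells with at least 1 transcript of it, so that Trdc itself is described and not tested. They numbered 171 of the 867 T-bet- cells that held at least 2000 transcripts. The series held 1413 cells above that minimum, of 1920 sorted. The measure was CEL-Seq2, a single-cell RNA sequencing method that counts each molecule once by a random tag of 6 bases, in libraries of 96 cells each, and 12 of the 20 libraries held T-bet- cells. The cells were double negative (CD4- CD8-), TCRβ+ thymocytes, sorted as NK1.1- by the study's methods and as NK1.1+ by its series text, a conflict left unresolved here. They were divided by CD122, the beta chain of the interleukin-2 and interleukin-15 receptors, and by a ZsGreen reporter of T-bet. The TBGR mouse carried that reporter alone and was 4 weeks old. The TBGR C-myc fl/fl mouse carried the reporter and both floxed C-myc alleles without Cre and was 2 weeks old. The TBGR C-myc D/D Cd4 mouse, also 2 weeks old, carried the same alleles with a Cd4-Cre transgene, which deletes C-myc in cells that have expressed the Cd4 promoter. Each genotype was taken as 1 mouse, although the study also writes of C-myc mice in the plural and of ages above 2 weeks. Genotype, age (for TBGR) and mouse thus cannot be told apart, and values between genotypes are given without a test. Intervals are 95% exact binomial or Poisson intervals and cover counting error only.

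T cells of the gamma delta lineage carry a receptor of a gamma and a delta chain in place of the alpha and beta chains. They arise in the thymus from double negative cells, and the transcription factors Sox13 and Maf and the kinase Blk mark those that can make interleukin-17. The delta locus lies inside the alpha locus, and rearrangement of the alpha chain gene removes it, so that Trdc RNA is found mainly in gamma delta cells and in precursors before alpha rearrangement. Trdc lies on chromosome 14 (chr14:54142851-54148868, plus strand, GRCm38, GENCODE M21).

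Transcripts of Myc, the targeted gene, were few in every group, and levels are given as CPM, the count scaled to a common total of transcripts per group. In CD122-T-bet- cells without Trdc there were 11 in TBGR (13.8 CPM, 6.90 to 24.7), 12 in TBGR C-myc fl/fl (21.8, 11.3 to 38.1) and 1 in TBGR C-myc D/D Cd4 (2.86, 0.0724 to 15.9). In Trdc-expressing cells there were 2 in TBGR (10.8, 1.31 to 39.1), 22 in TBGR C-myc fl/fl (84.8, 53.1 to 128) and 18 in TBGR C-myc D/D Cd4 (43.3, 25.7 to 68.4). In TBGR C-myc fl/fl repeat-like loci, such as Gm10800, made up 61.2% of these totals without Trdc and 30.1% with Trdc. In TBGR C-myc D/D Cd4 they made up 49.5% and 27.1%, so CPM was not matched for the other transcripts. Whether the intervals of Myc stay apart with these loci left out was not tested. On all transcripts, Myc transcripts were at a higher CPM in Trdc-expressing cells of both C-myc mice, with intervals that did not overlap. The kinds of cell that held these transcripts are given below. The exons that the deletion removes are not given in the sources used here, and reads cover the end of the transcript, so whether the count of Myc checks the deletion is not known.

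Over all mice the Trdc-expressing cells were more frequent in the CD122- population, which rested on both C-myc mice, since the TBGR shares were 14.9% in CD122-T-bet- and 15.6% in CD122+T-bet- cells. Of 422 CD122-T-bet- cells 114 (27.0%, 22.8 to 31.5) expressed Trdc, and of 445 CD122+T-bet- cells 57 (12.8%, 9.85 to 16.3) did. Among T-bet int cells it was 12 of 287 (4.18%), and among T-bet high cells 2 of 259 (0.772%, 0.0937 to 2.76), at median totals of 6320 and 4825 transcripts per cell. In barcodes of the T-bet- libraries that received no cell, 5 of 1152 (0.434%) held a Trdc transcript, at a median total of 18 transcripts. With totals so far below those of cells, this share is not a background rate for cells. Cells with T-bet, int or high, were sorted from the TBGR and the TBGR C-myc fl/fl mouse alone. In TBGR the order was 15.6% in CD122+T-bet-, 5.85% (2.84 to 10.5) in T-bet int and 0 of 147 in T-bet high cells, which allows up to 2.48%. The interval of the CD122+T-bet- share in TBGR C-myc fl/fl, 4.10% (1.34 to 9.31), overlapped that of its int cells, 1.72% (0.209 to 6.09), and that of its high cells, 1.79% (0.217 to 6.30).

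The share in the CD122-T-bet- population differed between mice. It was 26 of 174 cells (14.9%, 9.999 to 21.1) in TBGR, 29 of 120 (24.2%, 16.8 to 32.8) in TBGR C-myc fl/fl and 59 of 128 (46.1%, 37.2 to 55.1) in TBGR C-myc D/D Cd4. By library, it was 12 and 14 of 87 cells in TBGR replicates 3 and 4. In TBGR C-myc fl/fl it was 11 of 31, 5 of 35, 7 of 28 and 6 of 26 cells in replicates 1 to 4. In TBGR C-myc D/D Cd4 it was 30 of 58 and 29 of 70 cells in replicates 3 and 4. Both TBGR C-myc D/D Cd4 libraries were above every library of the other genotypes, while of the TBGR C-myc fl/fl replicates 1 lay between the TBGR values and 3 above both. When each cell was reduced to 2000 transcripts, the shares were 10.3%, 15.8% and 31.2%, in the same order of mice.

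The gap between the C-myc mice moved with Gm10800, a repeat-like locus whose correlated genes the study's methods remove. In TBGR C-myc fl/fl it made up 51.1% of all transcripts in CD122-T-bet- cells without Trdc and 25.3% in Trdc-expressing ones. In TBGR C-myc D/D Cd4 the values were 41.1% and 22.4%, and in TBGR 25.6% and 24.4%. Among cells with at most 40% Gm10800, a limit chosen after the data were seen, the share of Trdc-expressing cells was 21 of 146 (14.4%) in TBGR, 18 of 38 (47.4%, 31.0 to 64.2) in TBGR C-myc fl/fl and 41 of 75 (54.7%, 42.7 to 66.2) in TBGR C-myc D/D Cd4. At most 20% gave 14 of 82 (17.1%), 13 of 23 (56.5%, 34.5 to 76.8) and 23 of 36 (63.9%, 46.2 to 79.2). The intervals of the C-myc mice overlapped under both limits and did not overlap over all cells. With 16 repeat-like loci left out of the totals, the shares were 23 of 154 (14.9%), 23 of 66 (34.8%) and 43 of 82 (52.4%). By library, TBGR C-myc D/D Cd4 replicate 4 (46.9%) then lay below TBGR C-myc fl/fl replicates 1 (56.25%) and 4 (57.1%). The part of Gm10800 in the difference between the C-myc mice was not tested.

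**Figure D1:**
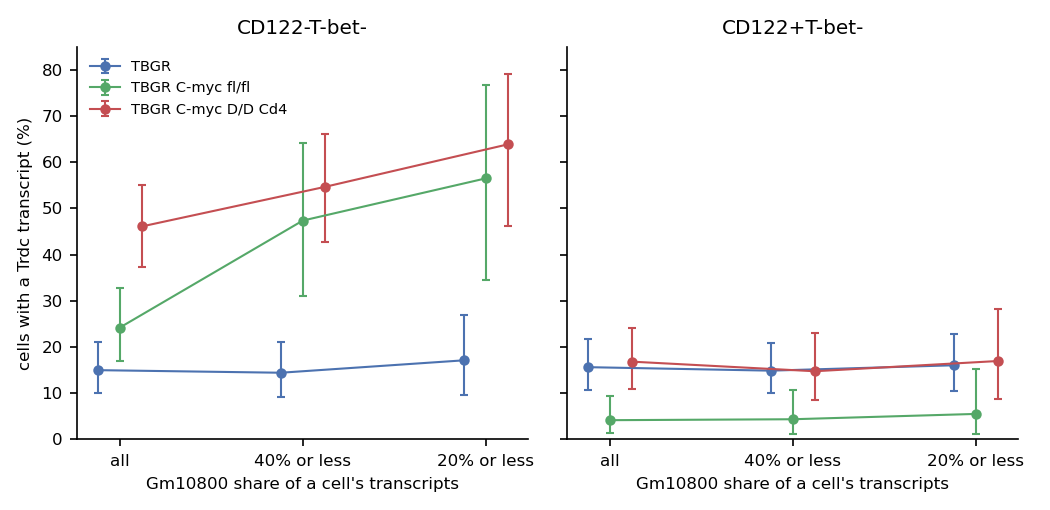
Percentage of cells with a Trdc transcript (vertical axis) by mouse, over all cells and over cells in which Gm10800 took at most 40% or 20% of transcripts (horizontal axis), in the CD122-T-bet- (left) and CD122+T-bet- (right) populations. Points are mice and bars 95% exact binomial intervals. In CD122-T-bet- cells the TBGR C-myc fl/fl mouse rises from 24.2% to 56.5% and the TBGR mouse stays between 14.4% and 17.1%.

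In the CD122+T-bet- population the order was different. The share was 29 of 186 cells (15.6%, 10.7 to 21.6) in TBGR, 5 of 122 (4.10%, 1.34 to 9.31) in TBGR C-myc fl/fl and 23 of 137 (16.8%, 11.0 to 24.1) in TBGR C-myc D/D Cd4. The TBGR libraries held 11 of 94 and 18 of 92 cells, and the TBGR C-myc D/D Cd4 libraries 13 of 58 and 10 of 79. In TBGR C-myc fl/fl replicates 1 to 4, 1 or 2 cells per library expressed Trdc, of 22 to 35. The TBGR and TBGR C-myc D/D Cd4 libraries overlapped, and all lay above those from TBGR C-myc fl/fl, the highest of which was 5.71%. At 2000 transcripts per cell the shares were 5.38% in TBGR, 2.46% in TBGR C-myc fl/fl and 7.30% in TBGR C-myc D/D Cd4, and the libraries were no longer separate, with TBGR replicate 1 at 3.19% and TBGR C-myc fl/fl replicate 4 at 4.55%. Gm10800 differed less with Trdc here, at 14.9% of transcripts against 12.5% in TBGR, 24.7% against 26.9% in TBGR C-myc fl/fl and 28.5% against 28.0% in TBGR C-myc D/D Cd4, with the Trdc-expressing cells given first.

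**Figure D2:**
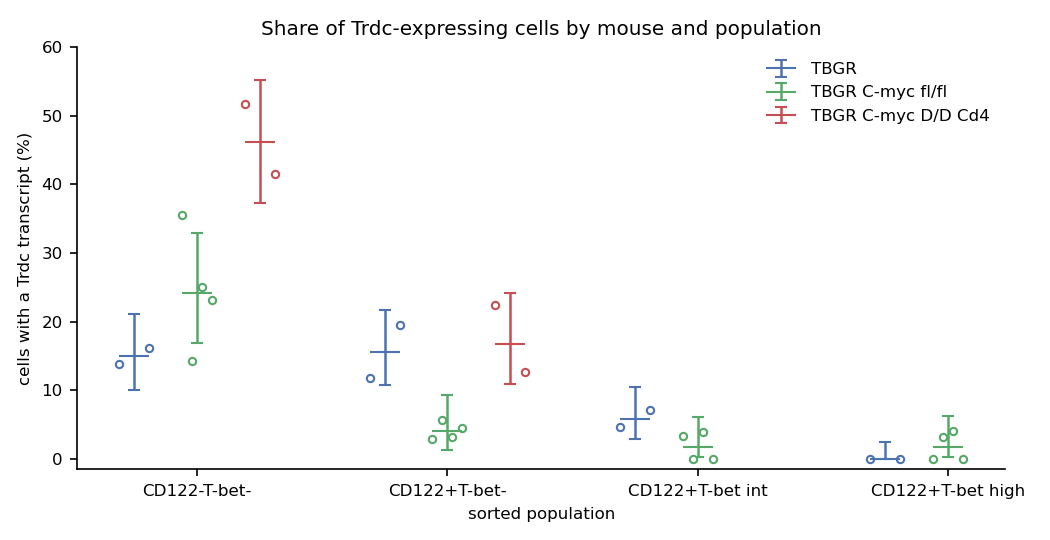
Percentage of cells with at least 1 Trdc transcript (vertical axis) in each sorted population (horizontal axis). Open circles are libraries, horizontal marks the mouse, and bars 95% exact binomial intervals of the mouse. The CD122-T-bet- cells of the TBGR C-myc D/D Cd4 mouse are highest at 46.1%, and the T-bet high cells are lowest, at 0.772% over both mice sorted for them.

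Most members held few Trdc transcripts. The 171 cells held 719 in all, with a highest count of 54. Exactly 1 transcript was counted in 86 cells, 2 in 19, 3 or 4 in 24, and 5 or more in 42. The member with the lowest total had 2221 transcripts. Below the minimum of 2000 were 285 sorted T-bet- cells, of which 18 held Trdc, the one with the highest total at 1964. A count of 10 or more was found in 23 cells. Every barcode was used in more than 1 library, and no pair of cells had identical counts.

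With the mice pooled, several transcripts were graded by the count of Trdc. In CD122-T-bet- cells Tcrg-C1, a constant region of the gamma chain, was found in 59 of 308 cells without Trdc (19.2%, 14.9 to 24.0), in 20 of 49 cells with 1 Trdc transcript (40.8%, 27.0 to 55.8) and in 45 of 65 cells with 2 or more (69.2%, 56.6 to 80.1). Sox13 was found in 14.6% and 24.5% of the first kinds and in 39 of the 65. Maf was found in 10.1%, 16.3% and 29.2%, and Blk in 5.19%, 8.16% and 21.5%. All 4 were most frequent in cells with 2 or more Trdc transcripts, and the cells with 1 lay nearer to cells without Trdc for Sox13, Maf and Blk. At 2000 transcripts per cell Sox13 was found in 6.49%, 16.3% and 43.1% of cells, while Blk was found in 2.92%, 2.04% and 15.4%, with no rise from 0 to 1 Trdc transcript. The 2000 included repeat-like loci, at 61.2% of transcripts without Trdc and 30.1% with Trdc in TBGR C-myc fl/fl. They were at 49.5% and 27.1% in TBGR C-myc D/D Cd4 and at 31.5% and 30.3% in TBGR. Values at 2000 transcripts in CD122-T-bet- cells of the C-myc mice, here and below, were thus not matched for the other transcripts.

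The mice did not contribute equally to these cells: those with 2 or more Trdc transcripts were 9 from TBGR, 19 from TBGR C-myc fl/fl and 37 from TBGR C-myc D/D Cd4, against 148, 91 and 69 without Trdc. Within mice Sox13 was found in 23 of 148 cells without Trdc, 3 of 17 with 1 transcript and 5 of 9 with more in TBGR. The counts were 9 of 91, 4 of 10 and 13 of 19 in TBGR C-myc fl/fl, and 13 of 69, 5 of 22 and 21 of 37 in TBGR C-myc D/D Cd4. Cells with 2 or more Trdc transcripts were thus highest for Sox13 in each mouse, and the same held for Tcrg-C1, Blk, Gzma and Dntt. Maf was found in 8 of 69, 6 of 22 and 8 of 37 cells in TBGR C-myc D/D Cd4, where cells with 1 transcript were highest.

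A cytotoxic gene and further lineage genes followed the same grading over the pooled mice. Gzma, which encodes granzyme A, was found in 13.3%, 26.5% and 61.5% of CD122-T-bet- cells with 0, 1 and 2 or more Trdc transcripts. 5830411N06Rik, a scavenger receptor gene known from gamma delta T cells, was found in 3.25%, 12.2% and 32.3%. Etv5, a transcription factor of the gamma delta lineage, was found in 11.4%, 18.4% and 43.1%. Of the genes of early double negative thymocytes, Dntt, which encodes terminal deoxynucleotidyl transferase, was found in 9.09%, 30.6% and 41.5%. Ptcra, the pre-T cell receptor alpha chain, was found in 3.25%, 10.2% and 26.2%, and Il2ra, the interleukin-2 receptor alpha chain CD25, in 3.25%, 8.16% and 26.2%. At 2000 transcripts per cell Ptcra was found in 1.95%, 0% and 6.15% of these cells, and in TBGR neither Ptcra nor Il2ra was found in the 9 cells with 2 or more Trdc transcripts. The opposite order was seen for Cd4, in 62.3%, 40.8% and 16.9%, but not within TBGR, where it was found in 138 of 148, 17 of 17 and 9 of 9 cells. Cd4 was found in 38 of 91, 2 of 10 and 1 of 19 cells in TBGR C-myc fl/fl, and in 16 of 69, 1 of 22 and 1 of 37 in TBGR C-myc D/D Cd4. The costimulatory receptor Icos was found in 28.6%, 26.5% and 6.15% of the pooled cells and in 50 of 148, 7 of 17 and 3 of 9 cells of TBGR. Trbc1, a constant region of the beta chain, was found in 95.8%, 98.0% and 100% of the pooled cells, which were sorted as TCRβ+. Trac was found in 27.6%, 30.6% and 18.5%.

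**Figure D3:**
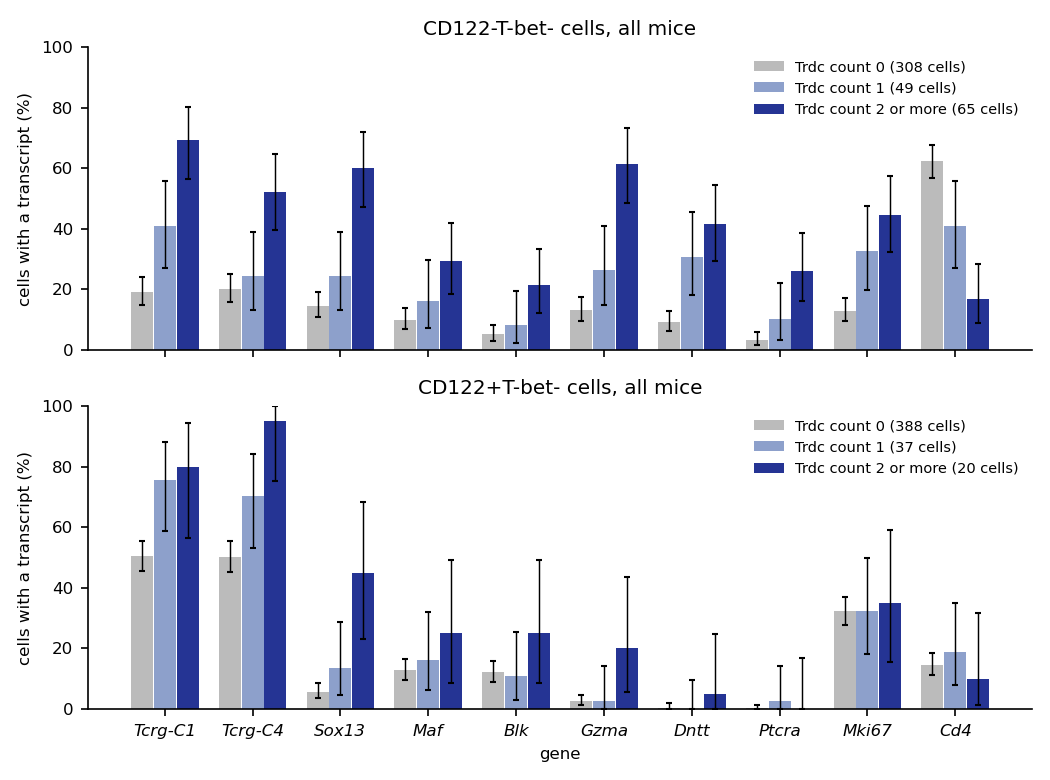
Percentage of cells with a transcript of each gene (vertical axis) among cells with 0, 1 and 2 or more Trdc transcripts, over all mice, in CD122-T-bet- (upper) and CD122+T-bet- (lower) cells. Bars carry 95% exact binomial intervals, which treat cells as independent. In the upper panel Tcrg-C1 goes from 19.2% to 69.2% and Cd4 from 62.3% to 16.9%, the latter in both C-myc mice and not in TBGR.

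In CD122+T-bet- cells the gamma chain genes were frequent with or without Trdc. Tcrg-C1 was found in 50.5% of 388 cells without Trdc, in 75.7% of 37 cells with 1 transcript and in 80.0% of 20 cells with 2 or more. Tcrg-C4, another gamma constant region, was found in 50.3%, in 70.3% and in 19 of the 20. Sox13 was found in 5.67%, 13.5% (4.54 to 28.8) and 45.0% (23.1 to 68.5), and Cd163l1, a scavenger receptor gene of gamma delta T cells, in 4.64%, 8.11% and 25.0%. Dntt was found in 2, 0 and 1 of these cells, so the early thymocyte gene that accompanied Trdc in CD122-T-bet- cells was nearly absent here. Reads of the gamma constant regions can be split between close copies, of which only uniquely placed reads were counted.

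To compare all genes, transcripts were summed over the Trdc-expressing cells and over the cells without Trdc of each mouse, and edgeR's quasi-likelihood test was run with the mouse as a block. Over CD122-T-bet- cells 4894 genes were tested and 31 (0.633%) passed an adjusted p of 0.05, of which 3 were higher (0.0613%) and 28 lower (0.572%) in Trdc-expressing cells. Scaling by DESeq2's size factors gave 19 higher and 69 lower. All 31 differed in the same direction in each of the 3 mice. The values below are CPM of the summed cells.

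The genes that were higher were Tcrg-C1, Blk and Dntt. Tcrg-C1 was at 422 CPM in Trdc-expressing cells and 138 in cells without Trdc in TBGR, at 509 and 67.2 in TBGR C-myc fl/fl, and at 416 and 117 in TBGR C-myc D/D Cd4, a log2 fold change of 1.61 ± 0.255 (SE, adjusted p = 0.0185). No mouse overlapped, and by library Tcrg-C1 was higher in Trdc-expressing cells in 8 of 8. Blk was at 168 against 25.1, 61.7 against 9.08, and 43.3 against 14.3, a log2 fold change of 2.09 ± 0.42 (adjusted p = 0.0323). It rested on 65 transcripts in Trdc-expressing cells. Dntt was at 97.4 against 21.4, 181 against 41.8, and 411 against 100.05, a log2 fold change of 1.56 ± 0.295 (adjusted p = 0.0277). Its levels were ordered by mouse in both kinds of cell, with TBGR lowest and TBGR C-myc D/D Cd4 highest.

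**Figure D4:**
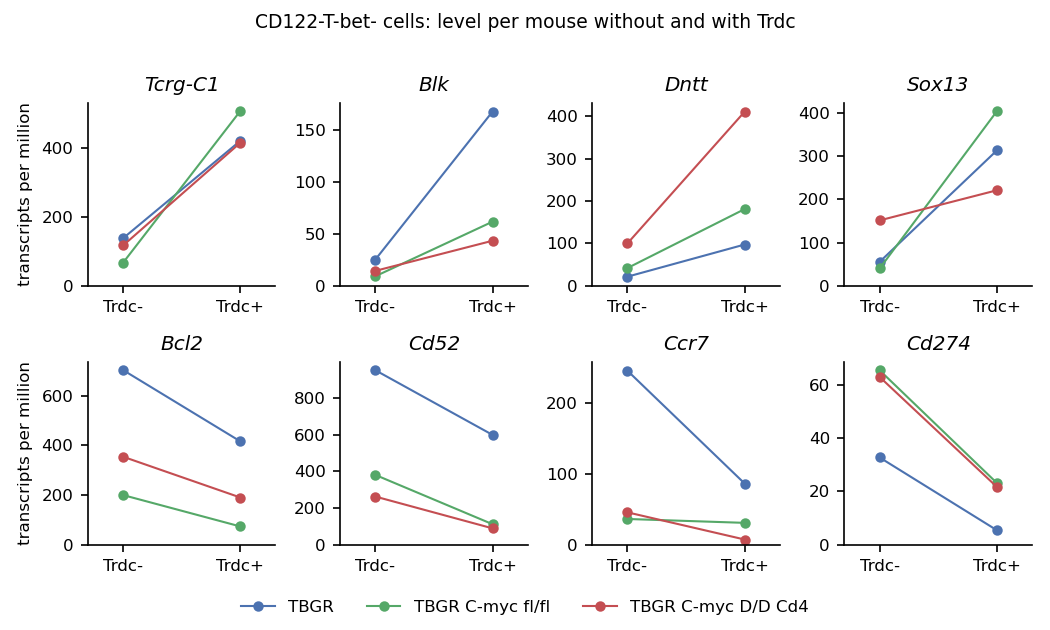
CPM (vertical axis) of 8 genes in CD122-T-bet- cells, summed over the cells without and with Trdc of each mouse. Lines join the values of 1 mouse. Tcrg-C1, Blk and Dntt passed the test as higher in Trdc-expressing cells, Bcl2, Cd52, Ccr7 and Cd274 as lower, and Sox13 (adjusted p = 0.0622) did not pass.

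Other genes of the gamma delta lineage had large fold changes that did not pass the edgeR test. Sox13 was at 314 against 55.3 CPM in TBGR, 405 against 39.96 in TBGR C-myc fl/fl and 221 against 151.5 in TBGR C-myc D/D Cd4, a log2 fold change of 1.58 ± 0.38 (adjusted p = 0.0622). 5830411N06Rik had a log2 fold change of 2.58 ± 0.65 and Gzma of 1.91 ± 0.49 (adjusted p = 0.0681 for each), and Gzma reached 498 against 420 in TBGR C-myc D/D Cd4, where 1 library was higher without Trdc. Maf was higher in both C-myc mice and lower in TBGR, with a log2 fold change of 0.49 ± 0.41 (adjusted p = 0.615). Spats2 (1.79) and Chaf1b (1.76), a chromatin assembly factor subunit, were among the largest fold changes and did not pass either (adjusted p = 0.0681 and 0.0711). Where only cells with 2 or more Trdc transcripts were set against cells without Trdc, 180 of 4383 genes (4.11%) passed, 21 higher (0.479%) and 159 lower (3.63%), and Sox13, Etv5, Gzma, 5830411N06Rik and Tcrg-C4 were among those higher.

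The 28 genes that were lower included characterised genes and unnamed Gm and Rik loci. Bcl2, the inhibitor of apoptosis, was at 416 against 704 CPM in TBGR, 73.2 against 200 in TBGR C-myc fl/fl and 190 against 354 in TBGR C-myc D/D Cd4, a log2 fold change of -1.45 ± 0.30 (edgeR adjusted p = 0.0369). Ccr7, the receptor for chemokines of the medulla, was lower by -1.77 and Cd52, a surface glycoprotein of lymphocytes, by -1.76. The costimulatory receptor Tnfrsf9 (-3.25), the G protein-coupled receptor Gpr83 (-2.78), the interferon-induced gene Ifit1 (-2.80), Nrp2 (-2.37) and Cd274, which encodes PD-L1 (-2.26), had the largest fold changes with the olfactory receptor locus Olfr613 (-2.24). The transcriptional repressor Bach2 (-1.66), Shisa5 (-1.53) and Samhd1 (-1.27) were also lower. The unnamed loci included Gm42860 (-1.91) and Gm44215 (-1.80). Gm42860 was at 21.6 against 35.2 CPM in TBGR, 46.2 against 165 in TBGR C-myc fl/fl and 79.4 against 169 in TBGR C-myc D/D Cd4. In the same order Gm37248 was at 130 against 474, 15.4 against 38.1 and 52.9 against 106. Gm10800 took 24.4% of transcripts with Trdc and 25.6% without in TBGR. Whether the unnamed loci follow Gm10800 was not tested. Over cells with at most 40% Gm10800 4 genes were higher and 15 lower. Bcl2, Ccr7, Cd52, Shisa5 and Samhd1 were still among those lower, and Tcrg-C1 and 5830411N06Rik were among those higher. Dntt (edgeR adjusted p = 0.0552) and Olfr613 (0.6503) no longer passed there, and Blk fell under the expression filter. With repeat-like loci left out of the totals, 2 genes were higher, Tcrg-C1 among them, and 9 lower. Bcl2, Tnfrsf9, Dntt and Blk were not among the genes that passed in that setting. No gene passed without the mouse as block, without the mouse labelled TBGR C-myc fl/fl, without its replicate 1 or without TBGR C-myc D/D Cd4 replicate 3 (289, 291, 669 and 522 genes at an unadjusted p under 0.05), and 584 passed without the TBGR mouse.

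The lists of marker genes are described by their counts, beside a median log2 fold change of 0.00 over all genes tested in CD122-T-bet- cells. Of the list of gamma delta lineage and interleukin-17 genes 10 of 25 were tested, 1 passed as higher and the median was 0.65. Of the genes of T cell receptor signal and agonist selection 15 of 20 were tested, all 15 had a fold change below 0, 2 passed (Bcl2 and Tnfrsf9) and the median was -1.05. Summed over that list, Trdc-expressing cells were at 3359 CPM against 3378 without Trdc in TBGR. The sums were 728 against 1271 in TBGR C-myc fl/fl and 1198 against 2107 in TBGR C-myc D/D Cd4, so the lower sum rested on the C-myc mice. Cd5, a surface inhibitor whose level follows receptor signal strength, was at 276 against 342 CPM in TBGR, 23.1 against 107 in TBGR C-myc fl/fl and 60.1 against 157 in TBGR C-myc D/D Cd4 (log2 fold change -1.499 ± 0.38, adjusted p = 0.0681). Of the genes of the DN2 and DN3 stages, the early double negative stages, 3 of 13 were tested, all 3 were above 0 and Dntt passed. Of 20 cell cycle genes none passed, although 19 were above 0 with a median of 0.67. The same held for 73 ribosomal protein genes, 72 of them above 0 with a median of 0.44, and 14 translation factors, all above 0 with a median of 0.44. Over cells with at most 40% Gm10800 these medians were 0.26, 0.26 and 0.31.

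The other lists moved less or held few tested genes. The median log2 fold change in CD122-T-bet- cells was 1.29 for 2 gamma delta receptor genes, -0.35 for 2 alpha beta receptor genes, -0.15 for 11 genes of double positive thymocytes and -0.25 for 8 regulators of the CD4 and CD8 lineages. It was -0.16 for 6 NKT cell genes, 0.04 for 2 genes of innate lymphoid and NK cells and 0.28 for 11 glycolysis genes. The lists of interferon gamma, B cell, myeloid and regulatory T cell genes held 1 tested gene each, at -0.20, 0.59, -0.28 and -1.71. Of these lists only the gamma delta receptor genes held a gene that passed, Tcrg-C1.

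The cell cycle values differed by mouse. Mki67, a marker of cells in cycle, was at 10.8 CPM in Trdc-expressing and 10.1 in other CD122-T-bet- cells of TBGR, at 401 and 92.6 in TBGR C-myc fl/fl, and at 1232 and 586 in TBGR C-myc D/D Cd4. The TBGR mouse was thus low in both kinds of cell. Summed over the list, cell cycle transcripts reached 1601 CPM in Trdc-expressing cells of TBGR, 8991 in TBGR C-myc fl/fl and 10035 in TBGR C-myc D/D Cd4.

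Markers of other cells were also summed. Of 8 B cell genes 3 to 5 had a transcript in Trdc-expressing CD122-T-bet- cells, and their sum ranged from 92.5 to 227 CPM over the mice, against 52.7 to 114 in cells without Trdc. As CPM it was higher in Trdc-expressing cells of each mouse. Repeat-like loci took more of the totals without Trdc in TBGR C-myc fl/fl (61.2% against 30.1%) and TBGR C-myc D/D Cd4 (49.5% against 27.1%). In these mice the direction was thus not matched for the other transcripts. Most of the B cell sum was Ighm, with 40, 20 and 56 transcripts in Trdc-expressing cells of TBGR, TBGR C-myc fl/fl and then TBGR C-myc D/D Cd4. Of 11 myeloid and dendritic cell genes 4 or 5 had a transcript, at 50.5 to 108 against 50.9 to 249. Cd79a, a defining B cell gene, was at 0 in all 6 of these sums. Of 9 NKT cell genes 7 or 8 had a transcript, at 628 to 775 against 343 to 783 CPM. Of 7 genes of innate lymphoid and NK cells 2 or 3 had a transcript, at 362 to 561 against 162 to 383. Klrb1c, the gene of NK1.1, was found in none of the 26, 29 and 59 Trdc-expressing CD122-T-bet- cells of the 3 mice, and in 1 of 29, 0 of 5 and 1 of 23 of the CD122+T-bet- ones. Of 5 regulatory T cell genes 2 to 5 had a transcript, at 75.7 to 135 against 77.2 to 138. Their part in the differences was not tested.

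The Trdc-expressing CD122-T-bet- cells fell into kinds by the transcripts they held, grouped after their values were seen and given with no test. Of the 114 cells 36 held Sox13, Maf or Blk and none of Ptcra, Il2ra and Dntt, 25 the reverse, 23 both and 30 neither. These kinds depend on depth: at 2000 transcripts per cell they were 32, 21, 10 and 51 cells. Cells with Sox13, Maf or Blk alone had a median of 5388.5 transcripts, and 33 of the 36 held Ccr9, a chemokine receptor of thymocytes and gut-homing T cells, while 6 held Mki67. Cells with Ptcra, Il2ra or Dntt alone had a median of 10260 transcripts, and 11 of the 25 held Ccr9 and 16 Mki67. Summed Ccr9 was at 267 CPM in cells with early genes alone, 934 in cells with both and 1853 in cells with Sox13, Maf or Blk alone. Of the 25 cells with early genes alone 16 came from TBGR C-myc D/D Cd4, where Mki67 was highest, and the part of the mouse and of depth in these differences was not tested. Among 308 cells without Trdc 58 held Sox13, Maf or Blk alone, 27 the early genes alone, 14 both and 209 neither.

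**Figure D5:**
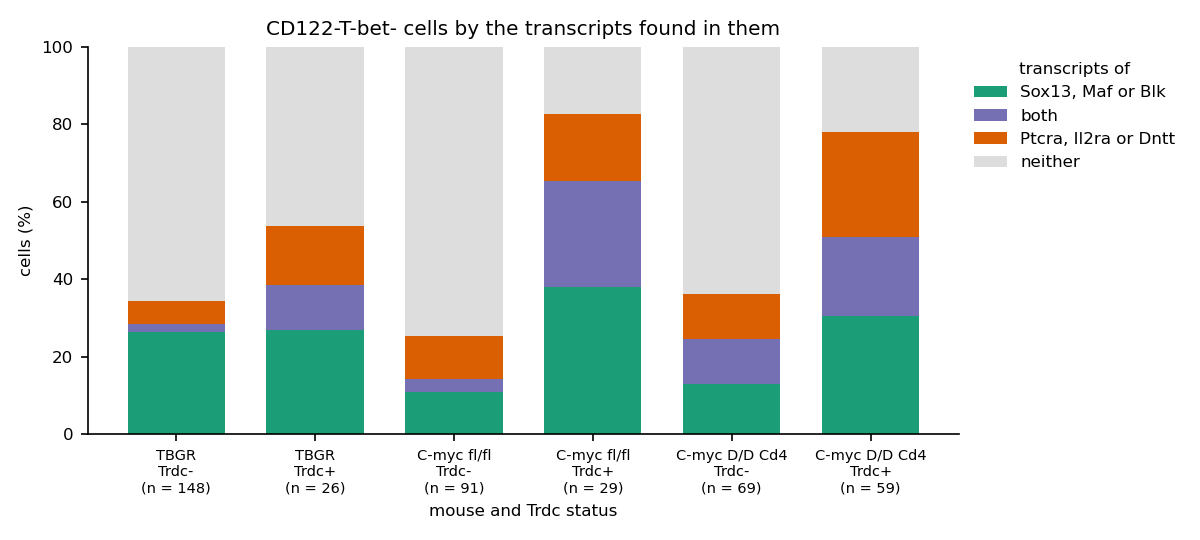
Percentage of CD122-T-bet- cells (vertical axis) that held transcripts of Sox13, Maf or Blk, of Ptcra, Il2ra or Dntt, of both sets or of neither, by mouse and Trdc status (horizontal axis, n cells). Cells with neither make up 17.2% to 46.2% of Trdc-expressing cells and 63.8% to 74.7% of cells without Trdc, and at 2000 transcripts per cell 34.5% to 65.4% and 73.9% to 84.5%.

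By mouse, the cells with early genes alone made up 4 of 26 Trdc-expressing CD122-T-bet- cells in TBGR (15.4%, 4.36 to 34.9), 5 of 29 in TBGR C-myc fl/fl (17.2%, 5.85 to 35.8) and 16 of 59 in TBGR C-myc D/D Cd4 (27.1%, 16.4 to 40.3). Cells with Sox13, Maf or Blk alone made up 26.9%, 37.9% and 30.5%. The intervals overlapped between the mice for both kinds. Over the list of DN2 and DN3 genes Trdc-expressing cells reached 141 CPM in TBGR, 617 in TBGR C-myc fl/fl and 914 in TBGR C-myc D/D Cd4.

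The Myc transcripts were also counted by these kinds of cell in both C-myc mice. The 18 transcripts in Trdc-expressing CD122-T-bet- cells of TBGR C-myc D/D Cd4 lay in 11 of the 59 cells. The 16 cells with Ptcra, Il2ra or Dntt alone held 12 of them (71.6 CPM, 37.0 to 125) and the 18 cells with Sox13, Maf or Blk alone held 0 of them, which allows up to 42.4 CPM, so that the intervals overlapped. In TBGR C-myc fl/fl the 5 Trdc-expressing cells with early genes alone held 7 (142 CPM, 57.0 to 292) and the 8 with both held 14 (118, 64.7 to 198). The 11 with Sox13, Maf or Blk alone held 1 and those with neither 0. Its 10 cells without Trdc and with early genes alone held 6 (96.1 CPM, 35.3 to 209), an overlapping interval. In TBGR C-myc D/D Cd4 the 8 such cells held 0, which allows up to 89.5 CPM.

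The intervals for Myc with and without Trdc overlapped in CD122+T-bet- cells of each mouse. Trdc-expressing cells held 14 transcripts in TBGR (57.5 CPM, 31.5 to 96.5), 0 in TBGR C-myc fl/fl, which allows up to 150 CPM, and 1 in TBGR C-myc D/D Cd4 (6.19, 0.157 to 34.5). Cells without Trdc held 65 (53.0), 75 (102) and 17 (30.6 CPM, 17.8 to 49.0). The log2 ratio of the TBGR C-myc D/D Cd4 mouse to the TBGR C-myc fl/fl mouse was -1.71 in cells without Trdc, with an SD of 2.10. The SD given beside these ratios is that of a difference between 1 library of each mouse, and not the error of the pooled ratio. Neither this ratio nor that of -0.96 (SD 0.96) in Trdc-expressing CD122-T-bet- cells exceeded its SD. For CD122-T-bet- cells without Trdc the ratio was -2.40 with an SD of 2.00 and rested on 1 transcript.

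Genes that depend on Myc in many cells were compared between the C-myc mice in the same way. In Trdc-expressing CD122-T-bet- cells the summed ribosomal protein genes had a log2 ratio of -0.27, translation factors of -0.19, glycolysis genes of -0.65 and cell cycle genes of 0.16. The SDs, again between single libraries, were 0.76, 1.07, 0.85 and 1.74. No ratio exceeded its SD, nor did those in CD122-T-bet- cells without Trdc, at -0.34, -0.16, -0.32 and 1.09 with SDs of 1.03, 0.92, 0.61 and 1.12. For CD122+T-bet- cells without Trdc the ratios were -1.35, -0.96, -1.27 and -1.68 with SDs of 0.65, 0.58, 0.53 and 0.47, all beyond 1 SD. In the Trdc-expressing CD122+T-bet- cells they were -0.49, -0.42, -1.46 and -1.87, but TBGR C-myc fl/fl gave 5 cells and the SDs were 3.78, 2.52, 2.34 and 2.27. Whether the ratios differ between cells with and without Trdc was not tested.

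Over CD122+T-bet- cells 5648 genes were tested and 2 (0.0354%) passed, 1 higher (0.0177%) and 1 lower (0.0177%). Icos was at 94.5 CPM in Trdc-expressing cells against 352 in TBGR, at 0 against 306 in TBGR C-myc fl/fl and at 30.9 against 108 in TBGR C-myc D/D Cd4, a log2 fold change of -2.08 ± 0.39 (edgeR adjusted p = 0.000398). It was lower in 8 of 8 libraries, of which the 4 from TBGR C-myc fl/fl held none. Ccr9 was at 82.2 against 70.2, 40.5 against 40.9, and 730 against 41.4, a log2 fold change of 2.01 ± 0.38 (adjusted p = 0.000398). It rested on the TBGR C-myc D/D Cd4 mouse, whose libraries were at 589 and 931 against 31.8 and 47.7. Tcrg-C1 (0.71 ± 0.34) and Tcrg-C4 (0.78 ± 0.33) did not pass (adjusted p = 0.999 for each), nor did Blk (0.55) or Maf (0.34). Sox13 and Cd163l1 fell under the expression filter and were not tested in this fit. The alternative settings that tested Sox13 gave log2 fold changes of 1.14 to 3.53, and it passed in 4 of 6. Cd163l1 passed in 2 of 2, at 3.17 to 3.63.

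The genes with the next largest fold changes in CD122+T-bet- cells did not pass either. Those with more RNA in Trdc-expressing cells of all 3 mice were the clock gene Cry1 (1.74 ± 0.53, adjusted p = 0.349), Fam78a (1.57), Def8 (1.52), the DNA repair nuclease Dclre1c (1.31) and C230088H06Rik (1.299). Those with less included Fmnl3 (-2.18) and the cell cycle inhibitor of the anaphase-promoting complex Fbxo5 (-1.88). Nup160, a nuclear pore gene, had no transcript in the Trdc-expressing cells of any mouse against 32, 19 and 15 transcripts in the larger sums without Trdc (adjusted p = 0.122). Of 20 cell cycle genes 4 were above 0, with a median of -0.39, beside -0.07 over all genes. Of 12 tested genes of the gamma delta lineage list 10 were above 0, with a median of 0.31. With cells thinned to 2000 transcripts no gene passed edgeR's test (77 at an unadjusted p under 0.05), and DESeq2 called none (70).

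Whether the Trdc contrast itself differed between the populations was tested as an interaction. Of 6525 genes 1 (0.0153%) passed, Olfr613, with a difference of 3.33 ± 0.53 (CD122+ minus CD122-, adjusted p = 0.0259), and none passed edgeR's test over cells with at most 40% Gm10800 (215 at an unadjusted p under 0.05). The differences were -0.87 ± 0.55 for Tcrg-C1 (adjusted p = 0.633), 0.92 ± 0.83 for Sox13 (0.757), -0.88 ± 0.85 for Icos (0.777) and 2.30 ± 0.82 for Ccr9 (0.35). A difference between the populations was therefore not shown for these genes.

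Trdc-expressing cells of both populations were compared with each other. Of 3318 genes 16 (0.482%) passed, 13 higher (0.392%) and 3 lower (0.0904%) in CD122+T-bet- cells. Il2rb, the gene of CD122 and so part of the sort, was at 255 CPM against 0 in TBGR, 162 against 15.4 in TBGR C-myc fl/fl and 155 against 0 in TBGR C-myc D/D Cd4. Beside it stood Cd160, a receptor of cytotoxic lymphocytes (log2 fold change 3.21 ± 0.54, adjusted p = 0.0207), Fcer1g, an adaptor chain of NK cell and Fc receptors (5.75 ± 1.09, adjusted p = 0.032), and Ctsw, a protease of cytotoxic cells (2.81 ± 0.53, adjusted p = 0.032). Fcer1g rested on 39 transcripts, 1 of them in CD122-T-bet- cells.

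The other genes higher in CD122+T-bet- Trdc-expressing cells included S100a6, a calcium-binding protein gene. It was at 107 against 5.41, 486 against 3.85 and 142 against 4.81 CPM in the same order of mice (5.29 ± 0.64, adjusted p = 0.00192). Its relative S100a10 (2.25), the filament gene Vim (2.43), the actin-binding Tmsb4x (1.73) and Klf2 (2.24), a transcription factor of T cell egress, were higher with it. Ubash3b (2.97), a phosphatase that dampens receptor signal, Nrgn (2.69), Klhdc2 (2.46) and Tsc22d1 (2.27) completed the 13.

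Dntt was at 0, 0 and 6.19 CPM in CD122+T-bet- Trdc-expressing cells against 97.4, 181 and 411 in CD122-T-bet- ones, the largest difference in that direction (-6.22 ± 0.74, edgeR adjusted p = 0.00192). Satb1, a chromatin organizer of thymocytes, was at 427 against 1580, 81.1 against 239 and 235 against 840 (-1.86 ± 0.35, adjusted p = 0.0316). C230085N15Rik was lower by -2.75. Ccr9 was at 82.2, 40.5 and 730 against 1807, 790 and 799 and did not pass (-2.57 ± 0.78, adjusted p = 0.241), nor did Ptprf (-2.76) or Spats2 (-2.60). With DESeq2's size factors 1 gene was higher and 1 lower, and over cells with at most 40% Gm10800 none passed edgeR's test (238 at an unadjusted p under 0.05). In TBGR C-myc fl/fl the CD122+T-bet- side was 5 cells.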

How the data were processed

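The deposited tables held, per the authors, transcript counts per gene and cell: reads were aligned to GENCODE VM9 transcripts with BWA 0.6.2-r126, multi-mapping reads were discarded, loci overlapping by more than 75% were merged and molecular tags were corrected for collisions, which gives estimated counts rather than whole numbers. They were rounded to whole numbers. Cells with at least 2000 transcripts, not counting mitochondrial genes and ERCC spike-ins, were kept, at 2016 to 25152 transcripts per cell. Doublets were not called, since cells were sorted singly into wells. The replicate numbers name libraries of 1 genotype, taken as 1 mouse. Sums per mouse and Trdc status were fitted in edgeR 4.0.16 with TMM scaling, its expression filter and Benjamini-Hochberg adjustment. The mouse was the block, since Trdc-expressing and other cells came from the same mouse. Each Trdc contrast left 2 residual degrees of freedom, from the spread between 3 mice of different genotypes. edgeR shares information on that spread across genes. The p-values thus rest mostly on the shared estimate and not on each gene's own spread between mice. Named were up to 10 genes per direction with the largest fold change, the same direction in 3 mice and a sum of at least 50, then members of 17 fixed gene lists; 1 gene that the rule names is not reported here. The members and lists were chosen with earlier results of these data known. The fits were tested on simulated data with known changes.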

Additional observations from a re-analysis of the deposited data

Results flagged for a closer look

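Of 34 groups of 4 libraries tested, 8 held a library far from the other 3. The rate of about 1 in 20 that chance alone flags does not hold for counts this low. Where 3 libraries hold no transcript of a gene, any transcript in the other library is flagged. In TBGR C-myc fl/fl each library held 1 or 2 Trdc-expressing CD122+T-bet- cells. Among these, replicate 3, with 1 such cell, stood apart. It had Sox13 at 639 CPM, Blk, Maf and Ccr9 each at 319.6 and the gamma delta lineage list at 5113. In the same cells replicate 1 stood apart for Cd4 (123 CPM) and replicate 2 for Mki67 (389). Among its Trdc-expressing CD122-T-bet- cells replicate 3 stood apart for Icos at 11.0 CPM, the other libraries being at 0. Olfr613 differed in its Trdc contrast between the CD122+ and CD122- populations by 3.33 on the log2 scale in an interaction test.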

How the results depend on the processing

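The counts of genes that passed depended on the settings. For CD122-T-bet- cells the 31 genes became 88 with DESeq2's size factors, 53 with no filter, 52 with cells thinned to 2000 transcripts, 180 with a Trdc count of 2 or more and 71 with sums per library, against 21 with DESeq2. With repeat-like loci left out they were 11 and over cells with at most 40% Gm10800 19, both chosen after the data were seen. Leaving out 1 mouse or library gave 0 to 584 genes. The 0 came without the mouse of TBGR C-myc fl/fl, without its replicate 1 and without TBGR C-myc D/D Cd4 replicate 3, while 584 came without the TBGR mouse, 206, 4, 2, 5, 12 and 78 without TBGR replicate 3, TBGR replicate 4, TBGR C-myc D/D Cd4 replicate 4, the TBGR C-myc D/D Cd4 mouse and TBGR C-myc fl/fl replicates 3 and 4. For CD122+T-bet- cells the 2 genes became 0 with DESeq2 (70 at an unadjusted p under 0.05), 7 with no filter, 0 with thinned cells (77), 1 with a Trdc count of 2 or more and 0 with sums per library (86), and leaving out 1 mouse or library gave 0 to 9. The 0 came without the TBGR mouse and without TBGR C-myc D/D Cd4 replicates 1 or 2, the 1 without TBGR replicate 1 or the TBGR C-myc D/D Cd4 mouse, and the 9 without TBGR replicate 2. The 1 gene of the interaction became 9 with DESeq2, 2 with its size factors, 25 with no filter, 0 with thinned cells (194) and 0 at 40% Gm10800 (215), and 0 to 41 without 1 mouse. The 16 genes between the populations became 2 with size factors, 29 with no filter, 2 without repeat-like loci and 0 at 40% Gm10800 (238), and 21 to 58 without 1 mouse. The causes were not tested.

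Without the replicate block for the mouse, edgeR called 0 genes in CD122-T-bet- cells (289 at an unadjusted p under 0.05), 0 in CD122+T-bet- cells (110), 0 in the interaction (383) and 0 between the populations (279).

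The share of Trdc-expressing CD122-T-bet- cells was 5.17% in TBGR and 28.9% in TBGR C-myc D/D Cd4 at a Trdc count of 2 or more. It was 10.3% and 31.25% in thinned cells, 17.1% and 63.9% at 20% Gm10800 and, in TBGR C-myc D/D Cd4, 54.7% at 40%. In TBGR C-myc fl/fl it was 56.5% at 20%, 47.4% at 40% and 34.8% without repeat-like loci. With these loci left out and cells thinned it was 7.79% in TBGR. For CD122+T-bet- cells a count of 2 or more gave 4.30% in TBGR, 0.820% in TBGR C-myc fl/fl and 8.03% in TBGR C-myc D/D Cd4, and thinning 5.38%, 2.46% and 7.30%. Thinning without repeat-like loci gave 7.57% in TBGR and 2% in TBGR C-myc fl/fl, where the 20% limit gave 5.45%.

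Of the log2 ratios between the C-myc mice, Myc in CD122-T-bet- cells without Trdc was -4.44 without repeat-like loci and glycolysis in these cells -0.98 at 40% Gm10800. Those that changed sign were, in Trdc-expressing CD122-T-bet- cells, ribosomal genes at 0.012 and translation factors at 0.10 without TBGR C-myc D/D Cd4 replicate 3, translation factors at 8.2e-05 with a Trdc count of 2 or more, and cell cycle genes at -0.13 when thinned and -0.51 without TBGR C-myc D/D Cd4 replicate 4. In CD122-T-bet- cells without Trdc they were ribosomal genes at 0.14 and translation factors at 0.32 without that replicate, and translation factors at 0.035 without TBGR C-myc fl/fl replicate 1. With each library left out, the other end of the range in Trdc-expressing CD122-T-bet- cells was -0.84 for ribosomal genes, -0.77 for translation factors and 0.47 for cell cycle genes, and in those without Trdc -0.75 and -0.57 for ribosomal genes and translation factors. In Trdc-expressing CD122+T-bet- cells they were ribosomal genes at 0.13 with a Trdc count of 2 or more.

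Of the list medians in CD122-T-bet- cells, that of the DN2 and DN3 genes was 1.17 with a Trdc count of 2 or more, 1.08 at 40% Gm10800, 1.16 without repeat-like loci and 1.69 when thinned. NKT cell genes were at 0.15 without repeat-like loci and -0.45 when thinned, gamma delta lineage genes at 1.73 and interferon gamma genes at 0.18 when thinned, gamma delta receptor genes at 1.83 and regulatory T cell genes at -2.18 with a Trdc count of 2 or more, the latter at 1.46 at 40% Gm10800, and myeloid genes at -0.13 without repeat-like loci. For CD122+T-bet- cells a Trdc count of 2 or more put DN2 and DN3 genes at -1.36, NKT cell genes at 0.35, double positive genes at -0.025, interferon gamma genes at -0.88 and translation factors at -0.27. Thinning put DN2 and DN3 genes at -0.60 and double positive genes at -0.085, which were at -0.0033 at 40% Gm10800. Of the named genes, Maf in CD122-T-bet- cells was at -0.21 without the mouse of TBGR C-myc fl/fl, and other samples left out gave up to 0.86. For CD122+T-bet- cells Blk was at -0.81 and Maf at -1.19 without the TBGR C-myc D/D Cd4 mouse, at -0.078 and -0.39 without its replicate 1, and leaving out 1 mouse or library gave at most 2.56 and 1.18. Over all alternatives of the named genes 575 values kept direction and side of the threshold, 179 lost the call, 45 gained it and 5 changed sign. Groups of few cells limit what could be detected, above all the 5 Trdc-expressing CD122+T-bet- cells of TBGR C-myc fl/fl.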
